A study of Homo sapiens with 16 samples.

Results

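The cyclin-dependent kinase (CDK) inhibitors are 7 genes: CDKN1A, CDKN1B and CDKN1C of the CIP/KIP family, and CDKN2A, CDKN2B, CDKN2C and CDKN2D of the INK4 family. They were chosen by name and found among the 60649 genes of the deposited table by their Ensembl identifiers. Of the 7 genes, 6 had enough reads to be tested along with 19103 genes in all, and CDKN1C did not. CDK inhibitors hold back the cell cycle before DNA is copied. INK4 proteins bind CDK4 and CDK6 and keep D-type cyclins from activating them, while CIP/KIP proteins bind cyclin-CDK complexes, above all those of CDK2. Active CDKs phosphorylate the retinoblastoma protein and its relatives and so release E2F factors, which switch on genes for DNA replication. In cells that stop dividing for good, a state called senescence, CDKN1A and CDKN2A are the inhibitors most often used as markers.

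RNA was sequenced from ASC52telo, a line of human adipose-derived mesenchymal stem cells (MSCs) immortalized with telomerase, so every group came from 1 line that carries added telomerase. Mitomycin C (MmC), which alkylates and crosslinks DNA, was given at 1.5 µg/mL for 18 h to make the cells senescent. Recombinant growth differentiation factor 11 (GDF11), a cytokine of the TGF-beta family, was then present at 10 ng/mL for 10 days. The 16 libraries fell into 4 groups of 4 biological replicates: young cells with neither agent (MmC-/GDF11-) or with GDF11 alone (MmC-/GDF11+), and senescent cells without (MmC+/GDF11-) or with it (MmC+/GDF11+).

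The total count lay between 71275337 and 144204979 per library. Levels are given as counts-per-million (CPM) after TMM scaling, which sets library sizes so that most genes come out level between libraries. The stromal markers NT5E, THY1 and ENG had median levels of 723, 917 and 557 CPM over the libraries, whereas the leukocyte marker PTPRC had 0.512, the epithelial marker EPCAM 0.0120 and the adipocyte marker ADIPOQ 0 CPM. The endothelial markers PECAM1 and CDH5 had medians of 7.07 and 1.41 CPM (highest library 19.7 and 2.98), and the monocyte marker CD14 had 2.04 CPM (highest 4.801), above the level of CDKN2A. Their part in the results was not tested. In bulk RNA, fewer cells of a type and less RNA per cell cannot be told apart.

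The genes lie at 6 places of the hg38 genome. CDKN1A (ENSG00000124762.14, chr6:36676460-36687337, + strand) encodes p21, CDKN1B (ENSG00000111276.12, chr12:12685498-12722369, + strand) encodes p27, and CDKN1C (ENSG00000129757.15, chr11:2883213-2885775, − strand) encodes p57. CDKN2A (ENSG00000147889.18, chr9:21967752-21995301, − strand) and CDKN2B (ENSG00000147883.12, chr9:22002903-22009305, − strand) are neighbours 7602 bases apart. CDKN2A encodes p16 and, from another first exon in another reading frame, ARF, and the counts per gene do not separate the pair. CDKN2B encodes p15. CDKN2C (ENSG00000123080.12, chr1:50960745-50974634, + strand) encodes p18, and CDKN2D (ENSG00000129355.7, chr19:10566460-10569059, − strand) encodes p19.

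The 4 genes with the clearest changes after MmC are shown by the 250 bases before a RefSeq transcription start (GRCh38.p14, 5′ to 3′ on the strand of the gene), since the data are transcript levels. Capitals mark the GC box GGGCGG, the binding word of SP1-like factors, on either strand. The first pair rose after MmC and the second pair fell.
CDKN1A, chr6:36678464-36678713, + strand: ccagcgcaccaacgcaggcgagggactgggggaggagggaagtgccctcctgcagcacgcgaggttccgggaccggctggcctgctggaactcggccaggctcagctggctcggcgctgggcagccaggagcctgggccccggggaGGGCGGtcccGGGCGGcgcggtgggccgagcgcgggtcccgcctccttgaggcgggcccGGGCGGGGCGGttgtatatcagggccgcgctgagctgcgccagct
CDKN2B, chr9:22009306-22009555, − strand: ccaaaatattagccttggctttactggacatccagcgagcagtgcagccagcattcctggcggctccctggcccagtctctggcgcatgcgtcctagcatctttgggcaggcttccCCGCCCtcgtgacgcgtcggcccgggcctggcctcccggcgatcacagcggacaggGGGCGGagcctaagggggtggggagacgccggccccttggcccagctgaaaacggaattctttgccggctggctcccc
CDKN1B, chr12:12717118-12717367, + strand: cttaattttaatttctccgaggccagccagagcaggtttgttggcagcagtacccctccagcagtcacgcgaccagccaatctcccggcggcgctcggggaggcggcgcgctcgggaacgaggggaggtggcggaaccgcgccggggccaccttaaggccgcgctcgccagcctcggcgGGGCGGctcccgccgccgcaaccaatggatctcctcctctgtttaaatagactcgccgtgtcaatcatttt
CDKN2C, chr1:50969995-50970244, + strand: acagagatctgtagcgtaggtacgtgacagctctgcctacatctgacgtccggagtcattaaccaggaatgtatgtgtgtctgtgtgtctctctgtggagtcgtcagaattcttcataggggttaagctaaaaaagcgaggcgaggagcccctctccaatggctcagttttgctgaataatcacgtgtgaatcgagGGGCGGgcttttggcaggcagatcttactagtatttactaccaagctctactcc

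The CDKN1A window holds 4 GC boxes, of which 1 pair overlaps next to the start, and the CDKN2B window holds 2. The windows of CDKN1B and CDKN2C hold 1 each, and also 2 and 1 copies of the CCAAT box. CDKN2C has 3 RefSeq windows, and the others hold 0 and 5 GC boxes, the window with 5 lying wholly inside an exon of the gene, so the number of boxes did not separate the genes that rose from those that fell. Among 35116 RefSeq windows of the same length, 42.6% hold a GC box and 32.0% a CCAAT box on either strand, so these words are common. The E2F words TTTCCCGC and TTTGGCGC were found in 1.93% of all windows and the AP-1 word TGANTCA in 6.57%, with none of these in the members' windows. The absence says only that the letters are not in these 250 bases.

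Exposure to MmC raised CDKN1A and CDKN2B and lowered CDKN1B and CDKN2C, both in the absence and in the presence of GDF11. Without GDF11, 5 of the 6 tested genes passed an adjusted p of 0.05, 2 higher and 3 lower, where 45.3% of all genes tested passed (22.9% higher and 22.4% lower). With GDF11, 4 of 6 passed, 2 higher and 2 lower, where 46.7% of all genes did (23.4% higher and 23.3% lower). In both comparisons the 4 and 4 libraries did not overlap for 4 of the 6 genes, and the same held for 37.3% of all genes without GDF11 and 41.5% with it. At an unadjusted p under 0.05 the counts were 5 of 6 in both comparisons, against 52.7% and 53.9% of all genes. The inhibitors moved in both directions rather than as a group. Their tests come from 1 edgeR quasi-likelihood fit over the 16 libraries with Benjamini-Hochberg adjustment over 19103 genes. This fit is the source of every adjusted p given here unless another tool or setting is named. SE is the standard error of the log2 fold change. Intervals are the 95% intervals of that fit, or of the fit with the replicate number as a block where that is named.

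CDKN1A, which encodes the p21 inhibitor induced after DNA damage, was the most abundant inhibitor in every group and rose the most. In MmC-/GDF11- replicates 1 to 4 had 330, 211, 182 and 181 CPM, and in MmC+/GDF11- they had 2031, 1496, 1425 and 1075 CPM. In the cultures with GDF11 the levels were 375, 207, 195 and 166 CPM without MmC and 2007, 1440, 1319 and 1040 CPM with it. Each MmC-exposed library lay far above each unexposed one, and within every group replicate 1 stood highest and replicate 4 lowest. For the cultures without GDF11 the group means were 226 ± 70.6 and 1507 ± 395 CPM (SD, n = 4). The fitted change was 2.74 on the log2 scale (SE 0.296, interval 2.11 to 3.37, adjusted p = 3.89e-06, 6.67-fold). That fit ignores pairing. With the replicate number as a block, which pairs these libraries, the change was 2.75 (SE 0.0936, interval 2.55 to 2.95). With GDF11 the change was 2.62 on the log2 scale (SE 0.295, adjusted p = 5.80e-06, 6.15-fold). The size of the change without GDF11 was above that of 96.5% of all genes tested. By level in CPM, CDKN1A stood at place 741 of 19103 genes in MmC-/GDF11- and at place 62 in MmC+/GDF11-. The antisense gene DINOL shares 146 exonic bases with CDKN1A, and it had 2 to 12 counts per library.

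CDKN1B, whose product p27 restrains CDK2 in resting cells, fell. It had 48.6, 45.9, 45.9 and 49.5 CPM in MmC-/GDF11- and 34.4, 30.4, 28.4 and 33.7 CPM in MmC+/GDF11-. With GDF11 present it had 48.9, 48.4, 45.9 and 50.5 CPM without MmC and 32.8, 28.8, 28.1 and 34.8 CPM with it. The replicates of a group lay close together and the exposed libraries were all below the unexposed ones. The log2 fold change was −0.58 (SE 0.0860, interval −0.76 to −0.40, adjusted p = 6.06e-05, 1.50-fold lower) without GDF11 and −0.64 (SE 0.0860, adjusted p = 2.69e-05) with it. With the replicate number as a block, the change without GDF11 was −0.59 (SE 0.0582, interval −0.71 to −0.46).

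CDKN1C, which encodes p57, was at the limit of what could be counted. Its counts in replicates 1 to 4 were 9, 1, 0 and 0 in MmC-/GDF11-, 2, 4, 2 and 0 in MmC-/GDF11+, 0, 0, 0 and 1 in MmC+/GDF11-, and 0, 2, 0 and 0 in MmC+/GDF11+. The highest count came from 1 young library, and no difference was detected at these counts. Fitted without a filter on low counts, edgeR gave adjusted p-values of 0.149 and 0.281 for MmC without and with GDF11, over 41196 genes. Of the 31-base words of its exons, 92.3% also occur on 3 alternate contigs of hg38. How reads that align to several places were counted is not given in the sources used here, and what this took from the counts was not tested.

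Of the INK4 genes, CDKN2C changed the most, and in the opposite direction to CDKN1A. The gene of p18 is a known E2F target in dividing cells. CDKN2C had 70.3, 90.2, 81.7 and 84.3 CPM in MmC-/GDF11- and 19.2, 22.0, 17.5 and 20.3 CPM in MmC+/GDF11-. With GDF11 present it had 73.7, 92.8, 82.2 and 77.0 CPM without MmC and 18.9, 20.5, 19.99 and 21.6 CPM with it. The exposed libraries lay in a narrow band far below the others. The log2 fold change was −2.05 (SE 0.101, interval −2.26 to −1.83, adjusted p = 1.12e-09, 4.13-fold lower) without GDF11 and −2.01 (SE 0.101, adjusted p = 1.64e-09) with it. In size, the first of these was above 94.1% of all genes tested. With the replicate number as a block, the change without GDF11 was −2.045 (SE 0.0714, interval −2.197 to −1.892). Of 5 proliferation genes listed, 3 fell in both comparisons and 0 rose, where 22.4% and 23.3% of all genes fell without and with GDF11. PCNA (log2 fold change −0.02, adjusted p = 0.923) and MCM2 (−0.67, adjusted p = 0.146), both for DNA replication, did not pass without GDF11. PLK1, a mitotic kinase, was at 80.8 ± 26.7 CPM in MmC-/GDF11- and 6.51 ± 2.06 CPM in MmC+/GDF11-. The part of the share of dividing cells in the level of CDKN2C was not tested.

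CDKN2B, whose product p15 is a known target of TGF-beta signalling, rose. It had 23.9, 18.7, 22.1 and 23.5 CPM in MmC-/GDF11- and 37.5, 35.1, 35.97 and 50.0 CPM in MmC+/GDF11-. With GDF11 present it had 21.9, 21.4, 20.8 and 23.1 CPM without MmC and 35.7, 33.7, 37.9 and 52.2 CPM with it. The exposed libraries were all above the unexposed ones, and replicate 4 stood above the others in both exposed groups. The log2 fold change was 0.85 (SE 0.140, interval 0.55 to 1.14, adjusted p = 0.000160, 1.80-fold) without GDF11 and 0.87 (SE 0.140, adjusted p = 0.000126, 1.83-fold) with it. With the replicate number as a block, the change without GDF11 was 0.84 (SE 0.0896, interval 0.65 to 1.03). Without replicate 4 of every group the changes were 0.76 and 0.76 on the log2 scale.

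CDKN2A, the gene of p16 and ARF, did not pass the test and stood at the bottom of the tested inhibitors. It had 0.689, 0.735, 1.09 and 1.11 CPM in MmC-/GDF11- and 0.709, 1.04, 1.08 and 1.43 CPM in MmC+/GDF11-. With GDF11 present it had 0.848, 0.966, 0.984 and 1.19 CPM without MmC and 0.602, 0.803, 1.30 and 1.39 CPM with it. The groups overlapped throughout. The log2 fold change was 0.23 (SE 0.272, interval −0.35 to 0.81, adjusted p = 0.516) without GDF11 and 0.04 (SE 0.271, adjusted p = 0.911) with it. The first interval, from a fit without pairing, leaves room for a rise by 0.81 on the log2 scale. With the replicate number as a block, which pairs the libraries, that interval was −0.11 to 0.57, leaving room for a rise by 0.57. The antisense gene CDKN2B-AS1 shares 593 exonic bases with CDKN2A and had 94 to 380 counts per library, with a log2 fold change of −0.43 for MmC without GDF11 (adjusted p = 0.183). Without the strand setting of the counting, reads of the pair cannot be told apart there. Of the 31-base words of CDKN2A, 1.93% occur elsewhere on the chromosomes, all of them in CDKN2B.

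CDKN2D, which encodes p19, moved least among the genes that passed. It had 10.7, 15.2, 14.9 and 13.6 CPM in MmC-/GDF11- and 8.95, 12.0, 10.3 and 10.7 CPM in MmC+/GDF11-. With GDF11 present it had 11.3, 14.5, 12.4 and 12.7 CPM without MmC and 9.15, 9.93, 10.7 and 11.5 CPM with it. The groups overlapped, although each exposed library was below the unexposed one of the same replicate number, at 0.694 to 0.840 of its level without GDF11. The log2 fold change was −0.37 (SE 0.127, interval −0.64 to −0.10, adjusted p = 0.0266) without GDF11 and −0.30 (SE 0.127, adjusted p = 0.0630) with it. The call without GDF11 was lost when any of MmC-/GDF11- replicates 2, 3 and 4 or MmC+/GDF11- replicates 1 and 3 was left out, with adjusted p up to 0.0871. With the replicate number as a block, which pairs these libraries, it was −0.36 (interval −0.54 to −0.19, adjusted p = 0.00167). With the same block the change with GDF11 passed as well, at −0.30 (adjusted p = 0.00651). The numbers were not taken to pair the libraries of that comparison, and the call depends on that choice. No difference between the changes without and with GDF11 was detected (interaction 0.07 on the log2 scale, adjusted p = 1.00).

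**Figure D1:**
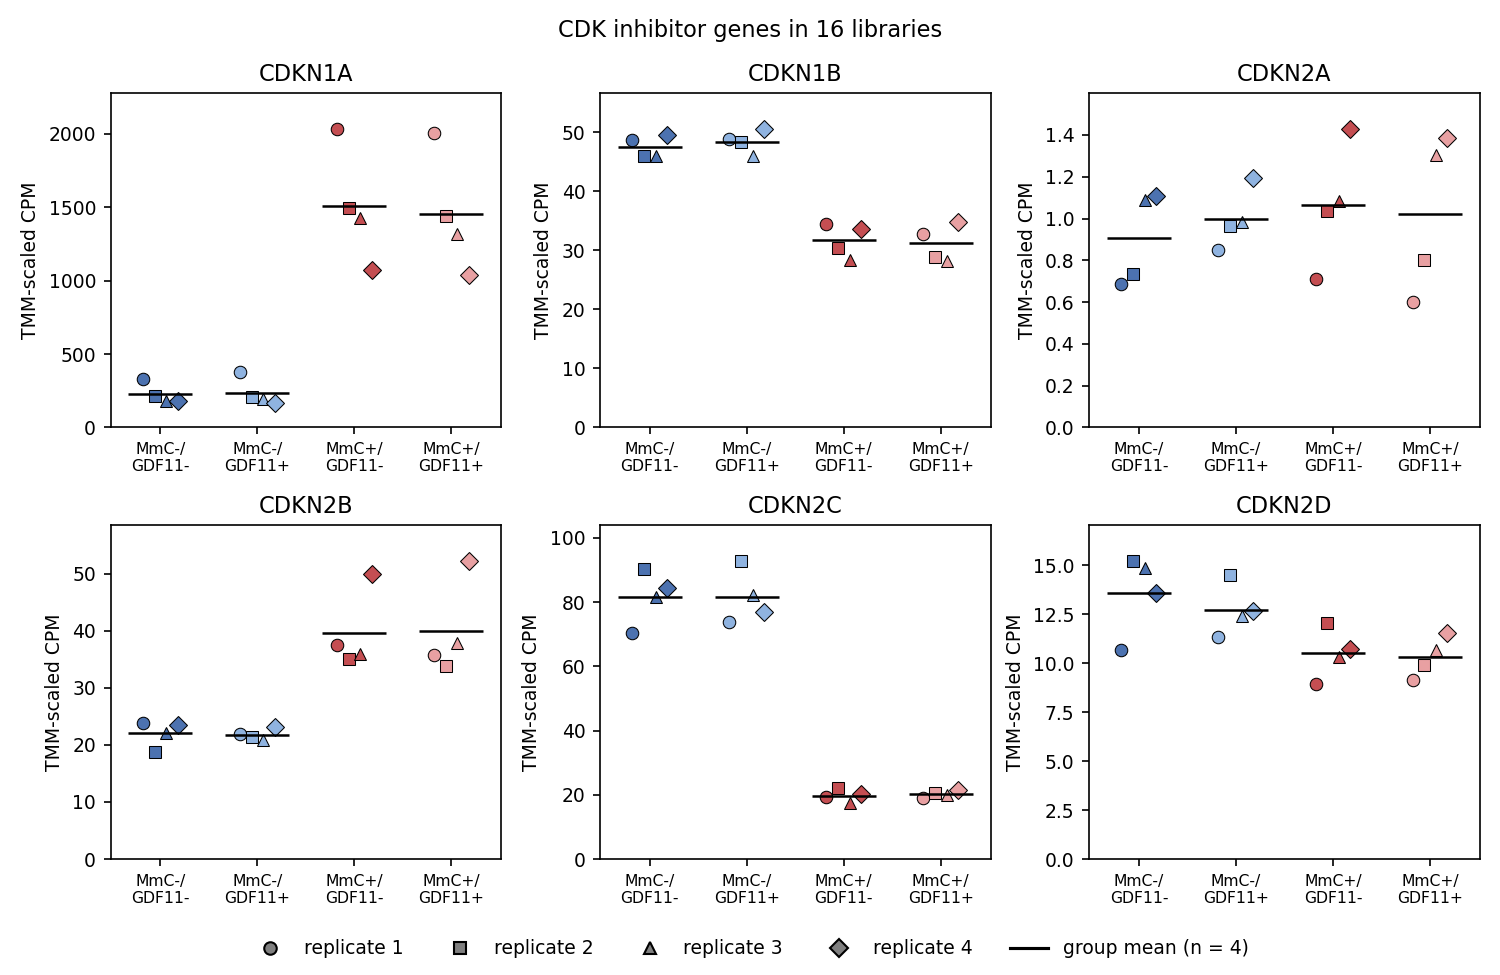
TMM-scaled CPM (vertical axes, each from 0) of the 6 tested CDK inhibitor genes in each library, by group (horizontal axes). Markers are the 4 replicate numbers and black lines the group means. CDKN1A and CDKN2B sit higher and CDKN1B and CDKN2C lower in the MmC+ groups without overlap, CDKN2A and CDKN2D overlap, and CDKN1C, with 0 to 9 counts per library, is not drawn.

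Within each MmC state, no change in an inhibitor with GDF11 was detected. In young cells the log2 fold changes with GDF11 were 0.06 for CDKN1A (interval −0.53 to 0.65), 0.03 for CDKN1B (−0.15 to 0.21) and 0.14 for CDKN2A (−0.44 to 0.72). For CDKN2B the young-cell change was −0.01 (−0.31 to 0.28), for CDKN2C it was 0.00 to 2 decimals (−0.21 to 0.20) and for CDKN2D it was −0.09 (−0.36 to 0.17). In this fit, which ignores pairing, the intervals were narrowest for CDKN1B and widest for CDKN1A and CDKN2A. With the replicate number as a block, they were −0.15 to 0.22 for CDKN1A and −0.18 to 0.51 for CDKN2A. For CDKN1B, CDKN2B, CDKN2C and CDKN2D they became −0.10 to 0.15, −0.20 to 0.18, −0.15 to 0.14 and −0.27 to 0.09. The replicate numbers were not taken to pair the young libraries.

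In senescent cells the log2 fold changes with GDF11 were −0.05 for CDKN1A (interval −0.64 to 0.54), −0.03 for CDKN1B (−0.21 to 0.15) and −0.05 for CDKN2A (−0.62 to 0.53). CDKN2B changed by 0.01 (−0.28 to 0.30), CDKN2C by 0.04 (−0.17 to 0.24) and CDKN2D by −0.03 (−0.30 to 0.24), and the libraries with and without GDF11 overlapped for all 6 in both cell states, where 0.89% of all genes did not overlap in young and 0.503% in senescent cells. By edgeR 0 of 6 genes passed in either cell state or for the interaction of MmC and GDF11, and 0 had an unadjusted p under 0.05, by edgeR, DESeq2 or limma-voom. Over all genes edgeR likewise called 0%, and the share with an unadjusted p under 0.05 was 1.18% in young cells, 0.503% in senescent cells and 0.9% for the interaction. The replicate numbers were taken to pair the senescent libraries. CDKN1A was lower with GDF11 in 4 of 4 such pairs, at 0.926 to 0.988 of its level without it. With the number as a block this difference was −0.06 on the log2 scale (interval −0.25 to 0.13, unadjusted p = 0.507 in edgeR). The block also narrowed the senescent-cell intervals of CDKN1B (−0.15 to 0.10) and CDKN2A (−0.40 to 0.26). For CDKN2B, CDKN2C and CDKN2D they became −0.18 to 0.19, −0.11 to 0.19 and −0.20 to 0.16.

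**Figure D2:**
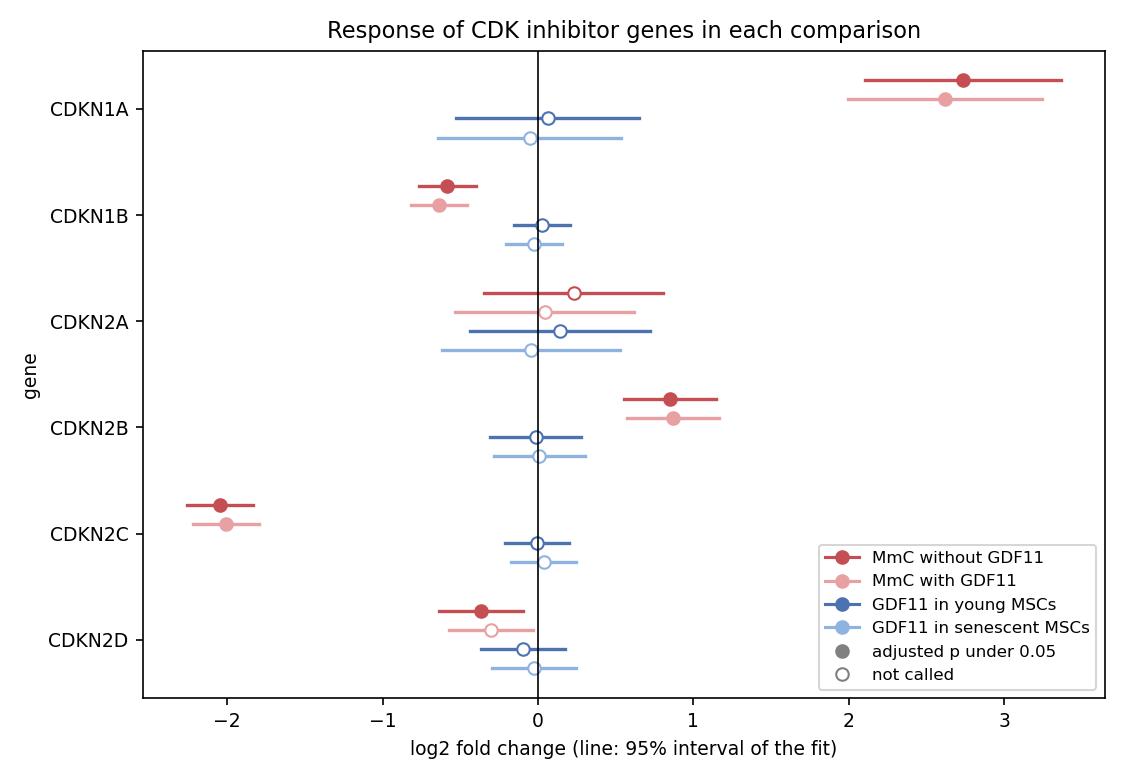
Log2 fold change (horizontal axis) of the 6 tested CDK inhibitor genes in 4 comparisons: MmC without and with GDF11, and GDF11 in young and in senescent MSCs. Lines are 95% intervals of the fit without a block, and filled points passed an adjusted p of 0.05. The MmC changes run from −2.05 for CDKN2C to 2.74 for CDKN1A, while every GDF11 interval includes 0. CDKN1C was not tested and is not drawn.

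Levels of different genes were compared per kb of exon, the combined length of all annotated exons. In MmC-/GDF11- the order was CDKN1A (75.4 ± 23.6 CPM per kb, SD, n = 4), CDKN2C (27.0 ± 2.77), CDKN2D (9.02 ± 1.38), CDKN2B (5.51 ± 0.592), CDKN1B (5.13 ± 0.203) and CDKN2A (0.233 ± 0.0577). CDKN2B and CDKN1B were not separated, since their libraries spanned 4.67 to 5.97 and 4.96 to 5.35 CPM per kb. In MmC+/GDF11- the order became CDKN1A (503 ± 132), CDKN2B (9.91 ± 1.74), CDKN2D (6.99 ± 0.847), CDKN2C (6.54 ± 0.616), CDKN1B (3.43 ± 0.305) and CDKN2A (0.274 ± 0.0756). There CDKN2D (5.95 to 8.01) and CDKN2C (5.80 to 7.27) overlapped. The place of CDKN1B depends on the length used: per kb of its longest transcript, 4335 bases against 9255 bases of combined exons, it had 11.0 CPM per kb in MmC-/GDF11- and stood above CDKN2D at 9.53.

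The make-up of the family shifted with these changes. CDKN1A made up 60.6 ± 8.00% of the summed level per kb of the 7 genes in MmC-/GDF11- and 94.6 ± 1.73% in MmC+/GDF11- (61.4% and 94.3% in the groups with GDF11). The other 6 genes together summed to 46.9 ± 3.53 and 27.1 ± 2.41 CPM per kb in these groups. Among the INK4 genes, the ratio of CDKN2C to CDKN2B per kb was 3.90 to 6.40 in the MmC-/GDF11- libraries and 0.538 to 0.830 in the MmC+/GDF11- libraries, so that their order reversed in every library. The ratio of CDKN1A to CDKN1B per kb of combined exons was 11.3 to 20.9 and 98.7 to 182, and its size depends on the length used for CDKN1B. These sums and ratios restate the levels above and were given no test.

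**Figure D3:**
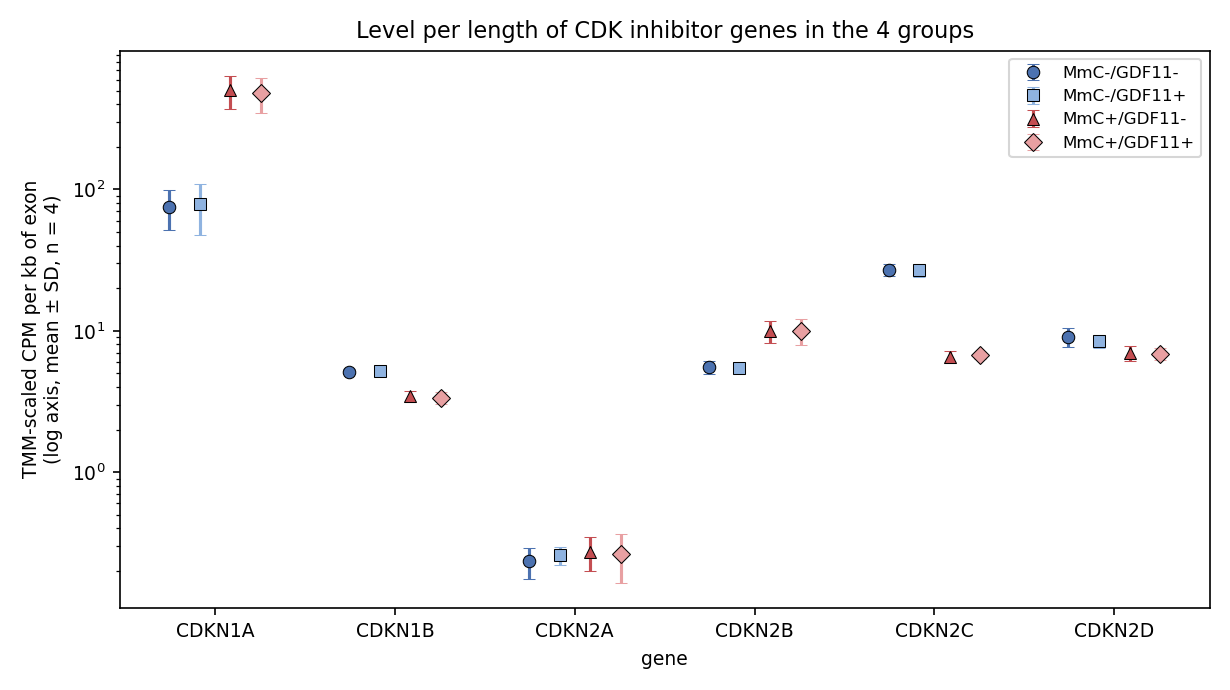
Level per kb of combined exons (vertical log axis, TMM-scaled CPM per kb, mean ± SD, n = 4) of the 6 tested CDK inhibitor genes in the 4 groups. CDKN1A stands above the rest in every group, and CDKN2C lies above CDKN2B without MmC (27.0 against 5.51) and below it with MmC (6.54 against 9.91). CDKN1C is not drawn.

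Some of the spread within groups followed the replicate number. CDKN1A was highest in replicate 1 and lowest in replicate 4 in 4 of 4 groups, and its highest library was 1.82 to 2.25 times its lowest. CDKN2A ran the other way, lowest in replicate 1 and highest in replicate 4 in 4 of 4 groups. CDKN2D was lowest in replicate 1 in 4 of 4 groups and CDKN2C in 3 of 4. The study sequenced the 16 libraries as 1 pooled mixture, and it lists batch effects among its limits without saying which libraries they touch. Whether the replicate numbers mark such batches was not tested.

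Related genes moved with the number too. The mean log2 CPM of 14 genes of the DNA damage response, each centred on its own mean and CDKN1A not among them, was highest in replicate 1 and lowest in replicate 4 in 4 of 4 groups, for example −0.29 and −0.98 in MmC-/GDF11-. MDM2, a ubiquitin ligase induced after DNA damage, had 63.7, 66.9, 252 and 258 CPM in replicate 1 of the 4 groups, and at most 40.1, 40.2, 157 and 169 CPM in the other replicates. The proliferation list was lowest in replicate 1 in 3 of 4 groups, but this was not particular to it. The lists below of INK4 locus regulators and of CIP/KIP degradation were lowest there in 4 of 4 groups. Those of cyclins and CDKs, of pocket proteins and E2F factors and of other CIP/KIP regulators were so in 3 of 4. The part of these differences in the spread of CDKN1A was not tested. Between same-numbered libraries MmC raised CDKN1A 5.94-fold to 7.82-fold without GDF11 and 5.36-fold to 6.95-fold with it.

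**Figure D4:**
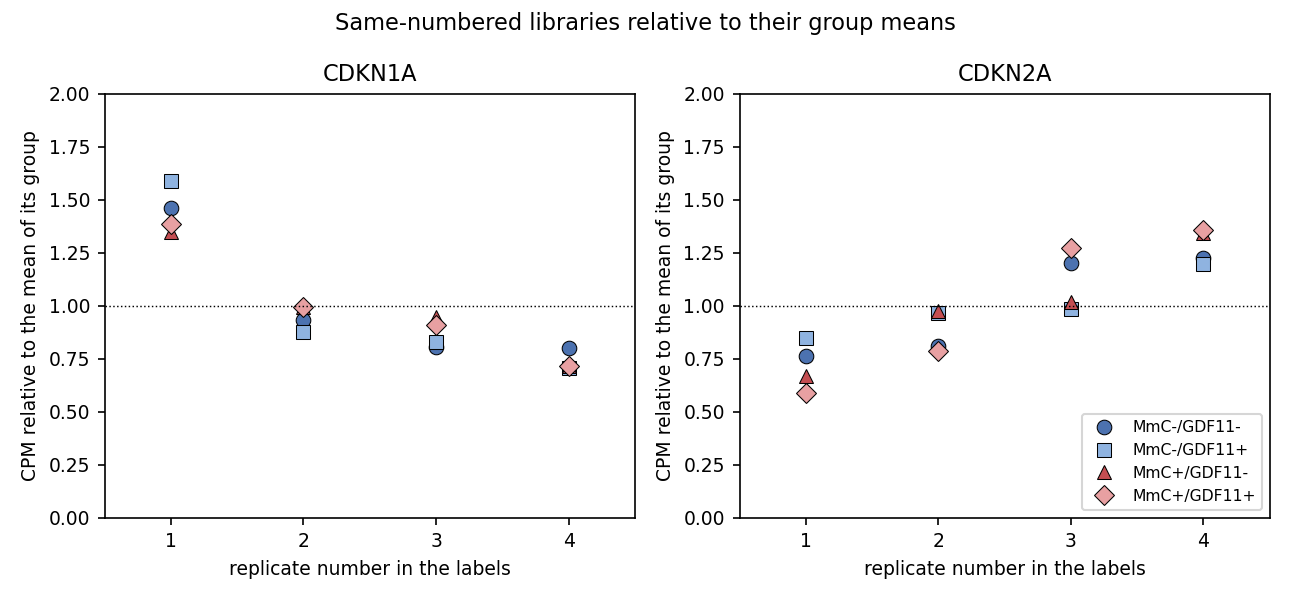
CPM of CDKN1A and CDKN2A relative to the mean of each group (vertical axis, 1 being the group mean) against the replicate number in the labels (horizontal axis), with 1 marker per group. CDKN1A is highest in replicate 1 and lowest in replicate 4 in all 4 groups, and CDKN2A is the reverse.

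The counts of the lists that follow stand against all genes tested, of which 22.9% rose and 22.4% fell after MmC without GDF11, and 23.4% and 23.3% with it. The kinases and cyclins that the inhibitors bind split between rising and falling. Of 11 genes, 2 rose and 4 fell after MmC both without and with GDF11, with a median log2 fold change of −0.04 without GDF11 where the median over all genes was −0.01. The D-type cyclins CCND1 and CCND2, partners of CDK4 and CDK6, were at 300 and 0.841 CPM in MmC-/GDF11- and 1248 and 4.74 CPM in MmC+/GDF11- (log2 fold changes 2.06 and 2.51, adjusted p = 1.09e-07 and 0.000919). CCNB1 and CCNA2, cyclins of mitosis and of S phase, fell from 136 to 21.1 CPM and from 62.5 to 12.0 CPM (−2.68 and −2.39, adjusted p = 4.89e-06 and 5.43e-06). Of 9 pocket proteins and E2F factors, 1 rose and 2 fell in both comparisons (median 0.12 without GDF11). E2F7, a repressing E2F factor, rose from 11.4 to 20.2 CPM (0.83, adjusted p = 0.00234), and the pocket proteins RBL1 and RBL2 changed by −0.86 and −0.31 (adjusted p = 0.00526 and 0.0134).

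Genes of the DNA damage response that induces CDKN1A moved mostly with it. Of the 14 genes listed, 13 rose, 0 fell and 1 did not pass in both comparisons, with median log2 fold changes of 1.43 without GDF11 and 1.35 with it. TNFRSF10B, a death receptor, rose from 78.8 to 222 CPM (1.49, adjusted p = 2.65e-08) and RRM2B, a ribonucleotide reductase subunit, from 39.95 to 128 CPM (1.68, adjusted p = 3.66e-07). Of 9 genes for the degradation of CIP/KIP proteins, 0 rose, while 3 fell without GDF11 and 4 with it (median −0.07 without GDF11). SKP2, which marks p27 for degradation, fell from 34.4 to 11.9 CPM (−1.53, adjusted p = 0.00118), and RBX1, a subunit of cullin ubiquitin ligases, from 65.5 to 40.2 CPM (−0.70, adjusted p = 0.00164). Of 7 other transcriptional regulators of CIP/KIP genes, 1 rose without GDF11 and 2 with it, and 0 fell (median 0.03 without GDF11). FOXO3, a factor that activates CDKN1B, rose from 44.01 to 61.0 CPM (0.47, adjusted p = 0.000341).

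Of 13 regulators of the INK4 locus, 12 were tested. Without GDF11, 3 rose and 2 fell (median 0.05), against 4 and 4 with it. The share called was near the 45.3% of all genes without GDF11 and above the 46.7% of all genes with it. CBX7, a Polycomb protein that represses the locus, was higher, at 8.95 CPM in MmC-/GDF11- and 19.9 CPM in MmC+/GDF11- (1.15, adjusted p = 7.61e-07). KDM6B, a demethylase that removes the Polycomb mark, was also higher, at 15.6 and 31.5 CPM (1.01, adjusted p = 6.51e-05). ID1, a repressor of CDKN2A, fell from 56.6 to 14.7 CPM (−1.95, adjusted p = 0.00133), and the Polycomb ligase RNF2 from 17.3 to 12.7 CPM (−0.45, adjusted p = 0.0117). CDKN2A itself was not called.

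**Figure D5:**
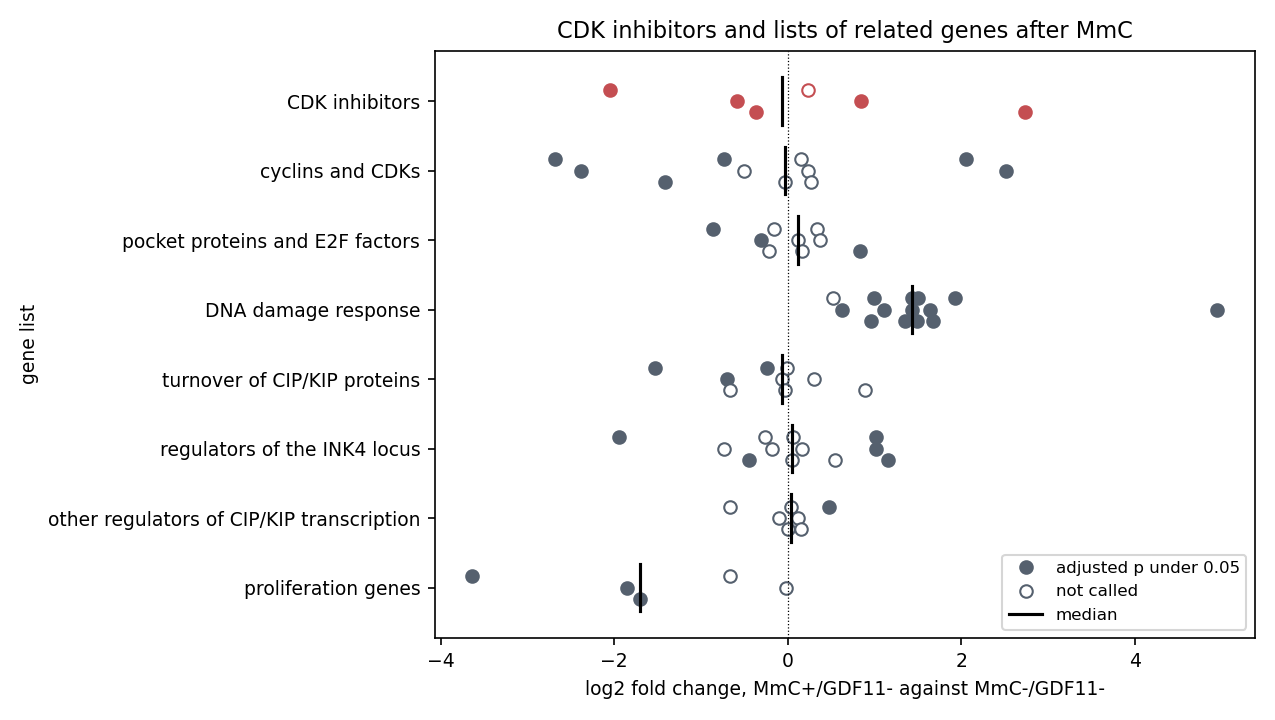
Log2 fold change of MmC+/GDF11- against MmC-/GDF11- (horizontal axis) for the CDK inhibitors and each list of related genes (vertical axis), 1 point per tested gene, filled where the adjusted p was under 0.05, with the median of each list as a line. The DNA damage response lies to the right of 0 (median 1.43) and the proliferation genes to the left (median −1.70), with the inhibitors on both sides. CDKN1C was not tested and is not drawn.

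Some neighbouring genes were called in the direction of the inhibitor beside them and others in the opposite one. Beside CDKN1A, SRSF3, a splicing factor gene 70860 bases away, fell by 0.90 on the log2 scale after MmC without GDF11 (adjusted p = 0.000104). RAB44, 10489 bases away on the other side, had too few counts to be tested. APOLD1, 3548 bases from CDKN1B, changed by −0.65 (adjusted p = 0.000471), in the direction of CDKN1B. CREBL2, 40390 bases away on the other side of CDKN1B, changed by 0.23 (adjusted p = 0.0261). GPR19, which overlaps CDKN1B on the opposite strand, changed by 0.41 (adjusted p = 0.471). The next genes around the CDKN2A and CDKN2B locus were MTAP, 30101 bases from CDKN2A, and DMRTA1, 437519 bases from CDKN2B. MTAP was at 0.16 (adjusted p = 0.449) and DMRTA1 at −1.40 (adjusted p = 0.000679), the latter opposite in direction to CDKN2B. Beside CDKN1C, SLC22A18, 13946 bases away, changed by 0.60 (adjusted p = 0.00659). FAF1, 478 bases from CDKN2C, changed by −0.49 (adjusted p = 0.000298), in the direction of CDKN2C at −2.05. Beside CDKN2D, KRI1, only 429 bases away, was at −0.06 (adjusted p = 0.723). AP1M2, 3612 bases away on the other side, was at −1.87 (adjusted p = 0.00487), in the direction of CDKN2D. It had few counts, 4 to 25 per library in MmC-/GDF11- and 2 to 7 in MmC+/GDF11-.

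The genes whose pattern over the 16 libraries lay closest to each inhibitor were found by the root mean square difference in log2 CPM, each gene centred on its own mean. For CDKN1A they were SUGCT (0.169), DRAM1 (0.172) and NPTXR (0.241), where the median over all genes compared with CDKN1A was 1.45. That median was lower for the other inhibitors: 0.360 for CDKN1B, 0.450 for CDKN2A, 0.539 for CDKN2B, 1.00 for CDKN2C and 0.319 for CDKN2D. The genes closest to CDKN1B were C2orf68 (0.0765), JADE1 (0.0794) and PLEKHA7 (0.0821). For CDKN2C they were MCF2L (0.106), ACAT2 (0.154) and STMN3 (0.157). For CDKN2B they were TENT5A (0.103), LMAN1 (0.110) and DNAJC25 (0.115), for CDKN2A CELSR3 (0.143), PPAT (0.157) and CCDC57 (0.164), and for CDKN2D NRF1 (0.0570), NAB2 (0.0862) and CYREN (0.0898). These are descriptions of likeness over libraries that share groups and replicate numbers.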

How the data were processed

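Poly(A) RNA of ASC52telo cells was sequenced in 16 libraries, 4 per group, with groups and replicate numbers taken from the labels. The authors aligned reads to hg38 with HISAT2 2.2.1, counted them on GENCODE genes with featureCounts 2.0.1 and deposited raw counts without normalization. The strand, pair and multi-mapping settings and a test for differential expression are not given in the sources used here.

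Tests were run with edgeR 4.0.16 (R 4.3.3). Low genes were removed with filterByExpr at its defaults of 10 (count) and 15 (total). After TMM scaling, 1 mean per group was fitted by the robust quasi-likelihood method to all 16 libraries together, and p-values were adjusted by the Benjamini-Hochberg method over 19103 genes at 0.05. Log2 CPM used a prior count of 2. The steps were tested on simulated counts for MmC without GDF11, fitted without a block. Those counts held no effect of the replicate number, so they cannot show how pairing bears on the fit. P-values measure the spread between these cultures of 1 line.

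Gene positions and symbols came from GENCODE v44, a later release than the authors', in which 60463 identifiers matched and 186 did not. Promoters came from RefSeq (GRCh38.p14), in which 6 of the 7 inhibitors have a window. No CDKN1C window and no protein sequence is shown.

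The members and lists were chosen with earlier results of these data known. 1 gene of a list is not reported here and was left out of that list. Every inhibitor is reported. Per list, up to 2 genes in each direction with the lowest adjusted p after MmC without GDF11 are named, as are overlapping genes and the nearest coding gene on each side, and the 3 coding genes (mean log2 CPM of at least 1) most like each tested inhibitor. Neighbours with too few counts to be tested were DINOL, RAB44, KCNQ1, C1orf185 and the noncoding ENSG00000264545, which overlaps CDKN2A and CDKN2B. MDM2 and the stromal and other cell markers are named beside the results they touch.

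The labels do not say that replicate numbers pair libraries. Same-numbered libraries deviated together from their group means, across genes, with correlations of at least 0.113 for MmC without GDF11 and at least 0.448 for GDF11 in senescent MSCs, and were taken as paired there. The 4 correlations ran from 0.0293 to 0.311 for MmC with GDF11 and from 0.0982 to 0.504 for GDF11 in young MSCs. These comparisons were not taken as paired, a choice that rests on the lowest correlation of each. The highest correlation in young MSCs was above the highest for MmC without GDF11, 0.368. No pair of replicates agreed within sampling noise. Alternatives were RLE scaling, no filter, at least 10 counts in every library, DESeq2 1.42.0, limma-voom (limma 3.58.1), the replicate number as a block, only the 8 libraries compared, and leaving out each library or each replicate number.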

Additional observations from a re-analysis of the deposited data

Results flagged for a closer look

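CDKN2B in MmC+/GDF11- replicate 4, at 50.0 CPM, stood apart from the other replicates of its group, which lay between 35.1 and 37.5 CPM. Its gap to the next library was 0.834 of the whole range, above Dixon's critical value of 0.829 for 4 samples. Without this library the log2 fold change of CDKN2B for MmC without GDF11 was 0.73 in place of 0.85 and still passed (adjusted p = 0.000539 in edgeR). Replicate 4 was also the highest in MmC+/GDF11+, at 52.2 CPM. Over the 24 sets of 4 libraries examined for 6 genes this was the 1 flag, where chance flags about 1 in 20.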

How the results depend on the processing

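The MmC calls of CDKN1A, CDKN1B, CDKN2B and CDKN2C kept their direction and passed in both MmC comparisons under all 19 alternatives run for each. The call of CDKN2D for MmC without GDF11 did not: it was lost with no filter on low counts (−0.37, adjusted p = 0.0511), with only the 8 libraries compared (−0.35, adjusted p = 0.0773), in 5 of 8 fits without 1 library and in 3 of 4 fits without a replicate number (2, 3 or 4), where the log2 fold change ran from −0.46 to −0.29. These fits ignore the pairing of the libraries by replicate number, with which it passed (−0.36, adjusted p = 0.00167). With GDF11, CDKN2D ran from −0.34 to −0.21 when libraries were left out and passed without replicate 1 of every group (−0.30, adjusted p = 0.0271). The number of inhibitors called stayed at 4 or 5 in both MmC comparisons, and at 0 for GDF11 and the interaction.

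With the replicate number as a block, over all genes 11066 in place of 8655 were called for MmC without GDF11 and 11267 in place of 8926 with it. The block changed the call of 1 inhibitor, CDKN2D with GDF11 (−0.30, adjusted p = 0.00651). The numbers were not taken to pair the libraries of that comparison, and the call depends on that choice.

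Values that were not called changed sign as follows. CDKN2A for MmC with GDF11 was −0.00043 by limma-voom and −0.0062 with the replicate block, and ran from −0.12 to 0.23 when libraries were left out. For GDF11 in young MSCs the leave-out ranges were −0.26 to 0.31 for CDKN1A, −0.087 to 0.029 for CDKN2B and −0.072 to 0.048 for CDKN2C. In senescent MSCs they were −0.24 to 0.13 for CDKN1A, −0.082 to 0.022 for CDKN1B, −0.22 to 0.14 for CDKN2A, −0.15 to 0.14 for CDKN2B, −0.018 to 0.093 for CDKN2C and −0.093 to 0.064 for CDKN2D. For the interaction they were −0.36 to 0.20 for CDKN1A, −0.13 to 0.16 for CDKN2B, −0.015 to 0.11 for CDKN2C and −0.0069 to 0.17 for CDKN2D. The cause of these changes was not tested. CDKN1C had only 0 to 9 counts per library, and the part of depth in this was not tested. CDKN2A had 44 to 191 counts per library, and its SE for MmC without GDF11 was 0.272, against 0.158 with the replicate block.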
